A study of Mus musculus with 26 samples.

Results

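The genes described here are Myc and 42 genes of ribosome biogenesis, 43 in all, chosen by gene symbol and followed through 2 count tables of mouse CD4+ T cells. Of the 43 symbols, 42 were found among the 21761 genes of each table. Noc2l had no row and was not analysed here. All 42 measured genes passed the filter on low counts in every comparison. All 26 libraries were made from C57BL/6 spleen and lymph node cells with a Foxp3-eGFP reporter, in which eGFP marks cells that express Foxp3, the transcription factor of regulatory T (Treg) cells. In the first table, Tet2/3-deficient Treg cells (CD4+eGFP+) came at 3 weeks of age from CD4-Cre mice with both genes floxed (Tet2fl/fl and Tet3fl/fl) and the reporter (n = 4), and control Treg cells came at the same age from mice with the same floxed alleles and reporter but no Cre (n = 4). CD4-Cre acts in all T cells from the thymus on, so the deficient Treg cells developed among other deficient T cells. The 4 kinds of induced Treg (iTreg) culture from mice of 5 to 6 weeks were grown with TGFb, retinoic acid (RA) and vitamin C (VitC), with TGFb and RA, with TGFb and VitC, or with TGFb alone (n = 2 each). Th0 cells were activated through CD3 and CD28 (n = 2), and naive cells were sorted directly as CD4+eGFP-CD25-CD62LhiCD44lo cells (n = 2). The second table held Foxp3-negative cells sorted on day 6 after TGFb iTreg cells had been restimulated through CD3 and CD28 (n = 3) and Foxp3-positive TGFb iTreg cells sorted on day 6 (n = 3), from mice of 12 to 14 weeks. The tables were never pooled.

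Total counts per library ranged over 13397602 to 17672302 in the ex vivo Treg cells, 9647669 to 11640223 in the naive and cultured cells and 11293704 to 17219805 in the second table. Levels are CPM, counts scaled to a common library total, here after the TMM method, which takes most genes as not changed. Fold changes are log2 values ± SE from edgeR's quasi-likelihood test, and a gene is said to rise or fall where its p adjusted over all tested genes is under 0.05. Whether replicates came from separate mice or separate cultures is not stated, and a p covers just the spread among the libraries at hand. In bulk RNA, fewer cells of a kind and less RNA per cell cannot be told apart. Tet2, a deleted gene, had 15.8, 12.2, 15.1 and 11.6 CPM in Tet2/3-deficient and 14.8, 14.2, 9.98 and 15.4 CPM in control Treg cells (log2 fold change 0.02 ± 0.15, edgeR adjusted p = 0.93). Tet3 had 108, 92.2, 93.7 and 111 CPM in Tet2/3-deficient and 159, 132, 126 and 168 CPM in control Treg cells (-0.52 ± 0.10, edgeR adjusted p = 0.00255). The counts cover all exons, so exons that remain after deletion are counted too, and Tet2 does not check the genotype label. Summed CD4 T cell markers were at 2406 to 4099 CPM across the first table, and Treg markers at 2042 to 2394 CPM in Tet2/3-deficient, 2309 to 2675 CPM in control Treg and 36.5 to 40.2 CPM in naive libraries. Summed erythroid markers were at 197 to 407 CPM in Tet2/3-deficient, 293 to 712 CPM in control Treg and 1.11 to 2.28 CPM in naive libraries. Summed CD8 T cell markers were at 3.37 to 5.3 CPM in Tet2/3-deficient, 24.8 to 28.5 CPM in control Treg and 31.2 to 33.7 CPM in naive libraries.

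Myc is a basic helix-loop-helix transcription factor that pairs with Max and binds E-box sequences, of which CACGTG is the best known. In activated T cells it drives growth before division, and the genes that make ribosomes are among its best known targets. Ribosome production starts with transcription of ribosomal RNA by RNA polymerase I in the nucleolus. Small nucleolar ribonucleoproteins (snoRNPs) then modify this RNA, the box C/D type by methylation and the H/ACA type by pseudouridylation. Large sets of assembly factors finally fold, cut and export the small and the large subunit.

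The promoters of these genes were read from RefSeq (mouse build GRCm38.p6, windows from 250 bases before to 50 bases after each start site). Windows were found for 37 of the 43 genes, and none was listed for Myc, Fbl, Npm1, Bop1, Rrp12 and Rrs1. The E-box CACGTG, which is its own reverse complement, stood in the windows of 8 of these 37 genes (21.6%), against 12% of 9088 genes tested in the naive and cultured cells and 8.09% of all 27025 genes with a window. The 8 genes were Imp4, Mybbp1a, Nop2, Pes1, Tsr1, Utp18, Utp20 and Wdr43. GGGCGG, the box bound by Sp factors, was searched on both strands and stood in 75.7% of the 37 genes, 70% of the tested genes and 38.2% of all. TATAAA, on both strands, stood in 5.41%, 8.12% and 15.7%. The next 3 windows are shown as examples from these 8 genes, each with 1 E-box, printed in capitals. They belong to Nop2 (chr6:125131633-125131932, plus strand, E-box centred 57 bases before the start site), Mybbp1a (chr11:72441077-72441376, plus strand, centred 43 bases after it) and Wdr43 (chr17:71615965-71616264, plus strand, centred 20 bases after it).
Nop2 promoter: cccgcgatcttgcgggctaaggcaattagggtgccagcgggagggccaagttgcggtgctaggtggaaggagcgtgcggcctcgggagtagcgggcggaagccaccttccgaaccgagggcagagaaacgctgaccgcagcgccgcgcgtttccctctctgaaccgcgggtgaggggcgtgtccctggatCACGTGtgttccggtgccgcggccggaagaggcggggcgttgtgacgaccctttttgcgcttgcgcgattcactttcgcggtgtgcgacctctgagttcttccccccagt
Mybbp1a promoter: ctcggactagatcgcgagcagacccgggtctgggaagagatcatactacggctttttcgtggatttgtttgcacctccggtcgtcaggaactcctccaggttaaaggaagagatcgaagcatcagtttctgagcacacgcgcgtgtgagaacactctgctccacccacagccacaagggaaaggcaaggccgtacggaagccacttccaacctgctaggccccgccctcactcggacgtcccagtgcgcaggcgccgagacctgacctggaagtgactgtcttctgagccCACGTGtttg
Wdr43 promoter: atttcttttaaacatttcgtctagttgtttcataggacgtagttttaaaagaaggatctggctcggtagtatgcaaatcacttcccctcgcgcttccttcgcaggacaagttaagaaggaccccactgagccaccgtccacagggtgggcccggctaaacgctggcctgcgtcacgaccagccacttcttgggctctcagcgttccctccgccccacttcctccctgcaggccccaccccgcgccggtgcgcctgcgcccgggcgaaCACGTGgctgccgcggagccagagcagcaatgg
Gnl3 encodes nucleostemin, a nucleolar GTP-binding protein of large-subunit assembly, and its values moved with activation and vitamin C more than those of most of these genes. Its window (chr14:31019082-31019381, minus strand) held no CACGTG, was 80.3% G and C, and had 10 matches to GGGCGG over both strands with overlaps counted, printed in capitals.
Gnl3 promoter: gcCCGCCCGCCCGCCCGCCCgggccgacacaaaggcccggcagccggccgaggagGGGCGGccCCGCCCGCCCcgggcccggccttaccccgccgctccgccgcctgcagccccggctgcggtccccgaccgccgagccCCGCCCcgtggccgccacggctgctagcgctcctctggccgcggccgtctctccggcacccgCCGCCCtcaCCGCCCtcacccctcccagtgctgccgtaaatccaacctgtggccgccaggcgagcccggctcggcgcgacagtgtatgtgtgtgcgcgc
A match is a description of the sequence and not a binding site. In Th0 against naive cells the median log2 fold change of the 8 genes with an E-box was 0.09, against 0.42 for the 28 measured genes with a window but no E-box, and in Tet2/3-deficient against control Treg cells it was 0.23 against 0.33. In control Treg against naive cells it was -0.32 for genes with an E-box and -0.12 for those without. With VitC the medians were -0.22 with an E-box and -0.29 without in cultures lacking RA, and -0.28 and -0.22 in cultures with RA. With RA alone they were 0.11 and 0.05, and in restimulated against day 6 iTreg cells -0.06 and -0.08.

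Levels differed widely among the genes. Per length (FPKM, mean over naive libraries), Npm1, which encodes the histone chaperone nucleophosmin, was highest at 578 and Rrp1b, a large-subunit assembly gene, lowest at 10.2. Npm1 has processed pseudogenes, and how reads shared with them were assigned is not given in the sources used here. Across the 8 groups of the first table, the mean CPM of a gene was highest in Th0 cells for 25 of the 42 genes, in naive cells for 8 and in Tet2/3-deficient Treg cells for 7. It was lowest in TGFb plus VitC cultures for 19, in control Treg cells for 15 and in naive cells for 6. The like counts over all tested genes were not made, so these do not set the 42 genes apart.

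Myc had 183, 197, 174 and 190 CPM in the 4 Tet2/3-deficient Treg libraries and 132, 127, 135 and 133 CPM in the 4 control Treg libraries. In the cultures it had 253 and 234 CPM with TGFb, RA and VitC, 289 and 299 with TGFb and RA, 272 and 257 with TGFb and VitC, 298 and 291 with TGFb alone and 275 and 304 in Th0 cells. Naive cells had 135 and 142 CPM. All cultured libraries thus stood above all ex vivo and naive ones. Ordered by mean ± SD, Myc was at 294 ± 4.97 CPM in TGFb, 294 ± 7.07 in TGFb plus RA and 289 ± 20.7 in Th0 cells, a trio that did not differ beyond its spread. Next came TGFb plus VitC at 264 ± 10.7 and TGFb plus RA plus VitC at 243 ± 13 CPM, then Tet2/3-deficient Treg cells at 186 ± 9.9 CPM. Control Treg cells at 132 ± 3.46 CPM and naive cells at 138 ± 5.17 CPM came last and overlapped.

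**Figure D1:**
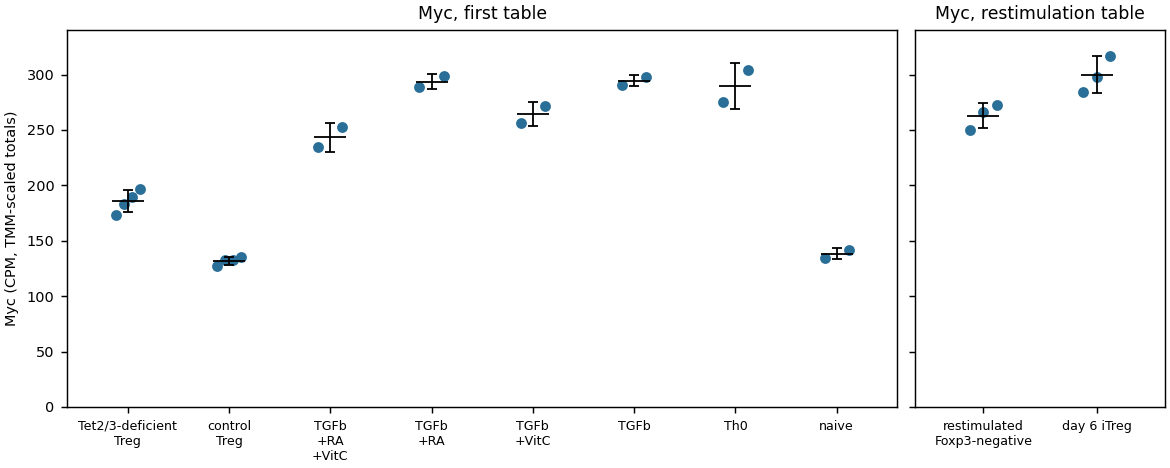
Myc in every library, as CPM over TMM-scaled totals, for the 8 groups of the first table and the 2 groups of the restimulation table. Points are libraries, horizontal lines are means and bars are SD. Cultured libraries lie between 234 and 304 CPM, Tet2/3-deficient Treg libraries between 174 and 197 CPM, and control Treg and naive libraries between 127 and 142 CPM.

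Myc and the set as a whole stood at different levels relative to naive cells. Relative to the naive mean, Myc stood at a log2 ratio of 0.99 and 1.14 in the 2 Th0 libraries and at 1.11 and 1.07 in the 2 TGFb libraries. The median of the 42 genes was 0.34 and 0.36 in Th0 libraries, and 0.02 and 0.05 in TGFb libraries. In TGFb plus VitC libraries the median was -0.26 and -0.12, below the naive level, while Myc stayed at 0.97 and 0.89 above it. These ratios are of scaled shares of each library and do not give amounts per cell. The scaling takes most genes as not changed, yet 72% of tested genes passed between Th0 and naive cells. TGFb plus VitC cultures were not tested against naive cells.

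**Figure D2:**
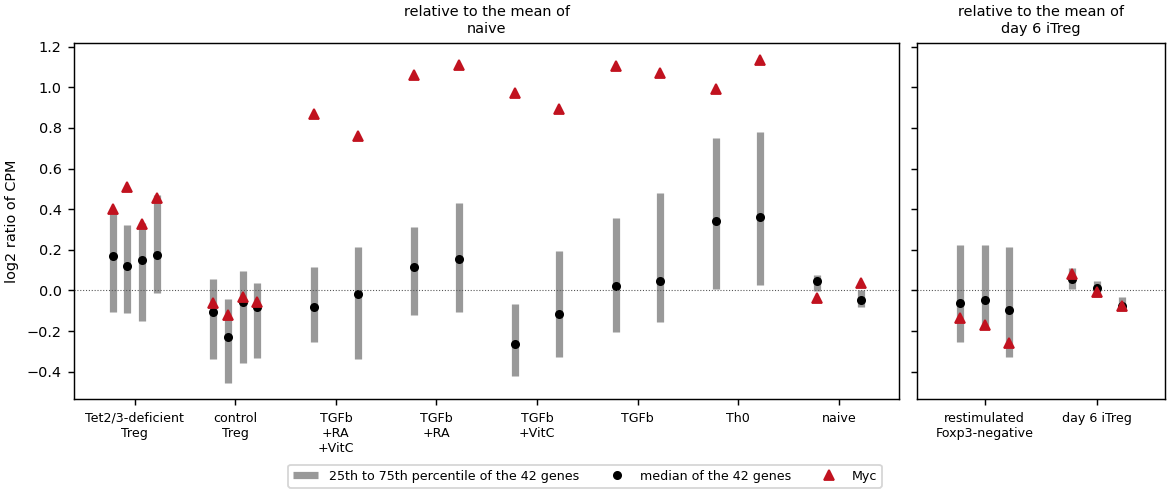
Log2 ratio of CPM to the naive mean (left) or to the day 6 iTreg mean (right) in every library. Black points are the median of the 42 genes, grey bars their 25th to 75th percentile, and red triangles Myc. Myc and the median lie apart in every cultured library of the first table.

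Th0 cells were set against naive cells to see what activation did. Of the 42 genes, 25 rose, 4 fell and 13 did not pass, with a median log2 fold change of 0.38. Of the 11287 tested genes 72% passed, with 35.7% higher and 36.4% lower, and their median was -0.01. Myc rose (1.10 ± 0.08, edgeR adjusted p = 1.26e-08). The gene sets that modify ribosomal RNA rose in full, with 3 of 3 box C/D and 4 of 4 H/ACA snoRNP genes. Nhp2, an H/ACA protein that binds the guide RNA, had 148 and 135 CPM in Th0 cells and 49.6 and 51.4 CPM in naive cells (1.52 ± 0.13, edgeR adjusted p = 4.61e-08). Gar1, another H/ACA protein, had 65.6 and 53 CPM in Th0 and 31.1 and 26.3 CPM in naive cells (1.08 ± 0.12). The pseudouridine synthase gene Dkc1 had 184 and 181 CPM in Th0 and 102 and 94.8 CPM in naive cells (0.93 ± 0.11). In all of these the Th0 libraries stood clear of the naive ones. Nop56, a core protein of box C/D snoRNPs, had 267 and 294 CPM in Th0 and 163 and 130 CPM in naive cells (0.97 ± 0.14).

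Large-subunit genes rose in Th0 cells in 9 of 11 cases. Gnl3 had 106 and 109 CPM in Th0 cells and 40.2 and 40.2 CPM in naive cells (1.45 ± 0.14, edgeR adjusted p = 1.98e-07). Mrto4, which holds the place of the ribosomal stalk during assembly, had 86.6 and 83.8 CPM in Th0 and 43 and 41.6 CPM in naive cells (1.05 ± 0.13). Bop1, part of the PeBoW complex with Pes1 and Wdr12, had 144 and 134 CPM in Th0 and 106 and 86.3 CPM in naive cells (0.57 ± 0.10). Of the other two, Ftsj3 did not pass (0.08 ± 0.11) and Noc3l fell: it had 30.1 and 29.4 CPM in Th0 and 52 and 43.5 CPM in naive cells (-0.65 ± 0.12, edgeR adjusted p = 0.000157). Nucleolar chaperones and regulators rose in 4 of 6 cases, among them nucleolin (Ncl), with 1118 and 1159 CPM in Th0 and 723 and 735 CPM in naive cells (0.68 ± 0.11).

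RNA polymerase I and the early small-subunit genes moved less evenly with activation. Polr1b, which encodes the second largest subunit, had 70.7 and 69.7 CPM in Th0 and 60 and 47.7 CPM in naive cells (0.42 ± 0.12, edgeR adjusted p = 0.00539; without the second naive library, adjusted p = 0.0915). The largest subunit, Polr1a, moved the other way, with 108 and 100 CPM in Th0 and 192 and 171 CPM in naive cells (-0.76 ± 0.16, edgeR adjusted p = 0.000716). Polr1c and Polr1e did not pass. Of the 10 early small-subunit genes 2 rose (Rrp9 at 0.30 and Wdr75 at 0.40), Ddx10, an RNA helicase, fell (-0.31 ± 0.11), and 7 did not pass. Heatr1, a large scaffold protein of the small-subunit processome, was at 145 and 132 CPM in Th0 and 160 and 129 CPM in naive cells and did not pass (-0.03 ± 0.13, edgeR adjusted p = 0.842). Among the 3 late small-subunit genes Nob1, the nuclease that makes the mature end of 18S RNA, had 73.5 and 76.6 CPM in Th0 and 59.5 and 55.5 CPM in naive cells (0.42 ± 0.09). Rrp12, an export factor of the small subunit, had 54.8 and 46.3 CPM in Th0 and 69.3 and 63.9 CPM in naive cells (-0.36 ± 0.15, edgeR adjusted p = 0.0408). The fall of Rrp12 did not pass by DESeq2 (adjusted p = 0.0605), and that of Ddx10 was lost without the first naive or the first Th0 library (edgeR adjusted p = 0.172 and 0.188).

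Related gene lists moved unevenly on activation, where 35.7% of all tested genes rose and 36.4% fell. Of 74 further ribosome biogenesis genes 33 rose and 16 fell (median log2 fold change 0.19), and of 12 RNA exosome genes 9 rose. Of 30 growth genes known as Myc targets 27 rose (median 1.05), among them the branched-chain aminotransferase gene Bcat1 (4.70 ± 0.32) and the transferrin receptor gene Tfrc (4.53 ± 0.10). In the Myc network of partners and antagonists, 2 of 11 tested genes rose and 7 fell, the falls led by Mycbp2 (-1.63 ± 0.16) and Mga (-1.28 ± 0.13). All 21 cell cycle genes rose.

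TGFb cultures were compared with Th0 cells, which share the activation but not the cytokine. Of the 42 genes 20 fell and 22 did not pass, with a median of -0.27, while 11.6% of all tested genes fell and 14.5% rose. Myc was at 298 and 291 CPM with TGFb and 275 and 304 CPM in Th0 cells and did not pass (0.02 ± 0.08, edgeR adjusted p = 0.853). The 4 H/ACA genes all fell. Gar1 had 37.1 and 35.7 CPM with TGFb and 65.6 and 53 CPM in Th0 cells (-0.71 ± 0.12, edgeR adjusted p = 0.000657). Dkc1 had 138 and 147 CPM with TGFb and 184 and 181 CPM in Th0 cells (-0.36 ± 0.11, edgeR adjusted p = 0.0292). Both pairs of libraries stood apart.

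The largest fall under TGFb was that of Wdr12, of the PeBoW complex, with 55.5 and 53.6 CPM against 90.6 and 93.2 CPM in Th0 cells (-0.75 ± 0.09, edgeR adjusted p = 2.44e-05). Its partner Pes1 fell less (-0.26 ± 0.08), and Bop1, with 121 and 133 CPM under TGFb and 144 and 134 CPM in Th0 cells, did not pass (-0.13 ± 0.10). Gnl3 had 67.2 and 75.2 CPM under TGFb and 106 and 109 CPM in Th0 cells (-0.59 ± 0.13), and Mrto4 had 58.8 and 63.8 against 86.6 and 83.8 CPM (-0.47 ± 0.13). Rrp9, the U3-specific protein of the small-subunit processome, had 46.6 and 51.1 CPM under TGFb and 76.8 and 69.6 CPM in Th0 cells (-0.58 ± 0.12). By role, 7 of 11 large-subunit genes, 2 of 3 box C/D genes, 3 of 6 chaperones and regulators and 2 of 10 early small-subunit genes fell. So did Polr1b, 1 of 4 RNA polymerase I genes, and Nob1, 1 of 3 late small-subunit genes. The count of 20 depended on single libraries: it was 4 without the first TGFb, 6 without the first Th0 and 12 without the second Th0 library.

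Further from these genes, TGFb against Th0 showed 18 of 74 other ribosome biogenesis genes lower, 4 of 12 exosome genes lower and 12 of 21 cell cycle genes lower. Of the 30 growth targets 19 fell and 2 rose. In the Myc network 2 of 11 tested genes rose, 2 fell and 7 did not pass. Among them Mxd1, which competes with Myc for Max, rose (2.38 ± 0.12) and Mycn, a Myc paralog, fell (-1.14 ± 0.34).

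Vitamin C is a cofactor of the TET enzymes, which oxidise 5-methylcytosine, and cultures with and without it were compared at each state of RA. Without RA, TGFb plus VitC cultures had 13 of the 42 genes lower than TGFb cultures and 29 that did not pass, where 7.99% of all tested genes fell and 8.84% rose. The log2 fold change was negative for 42 of 42 genes, against 50.1% of all tested genes, with a median of -0.27. The 13 included all 4 H/ACA genes. Nhp2 had 68.4 and 74.5 CPM with VitC and 99.5 and 109 CPM with TGFb alone (-0.55 ± 0.12, edgeR adjusted p = 0.00819). Gar1 had 24.7 and 26.9 CPM with VitC and 37.1 and 35.7 CPM with TGFb alone (-0.50 ± 0.13), and Dkc1 had 95 and 122 CPM against 138 and 147 CPM (-0.40 ± 0.11, edgeR adjusted p = 0.0267). In each the VitC pair lay below the TGFb pair.

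Other falls with VitC were in the large-subunit and chaperone genes. Gnl3 had 41.7 and 54.1 CPM with VitC and 67.2 and 75.2 CPM with TGFb alone (-0.58 ± 0.14, edgeR adjusted p = 0.0109). Npm3, a relative of nucleophosmin, had 92.2 and 102 CPM with VitC and 131 and 147 CPM with TGFb alone (-0.52 ± 0.12). Nolc1, a chaperone of snoRNPs, had 116 and 131 CPM with VitC and 164 and 173 CPM with TGFb alone (-0.45 ± 0.09, edgeR adjusted p = 0.00365). Groups did not overlap for these genes. Fbl, the box C/D methyltransferase gene (-0.41 ± 0.10), Nop58 (-0.43 ± 0.11), Nop10 (-0.44 ± 0.13), Wdr12 (-0.37 ± 0.09), Nop2 (-0.33 ± 0.10), Mybbp1a (-0.31 ± 0.09) and Npm1 (-0.26 ± 0.08) made up the rest.

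Polymerase and small-subunit genes gave no call with VitC without RA by edgeR. At an unadjusted p under 0.05, 25 of the 42 genes were counted in all, beside 3583 of the 11287 tested genes. Polr1b was at 46.7 and 48.8 CPM with VitC and 55.4 and 52.4 CPM with TGFb alone (-0.18 ± 0.12, edgeR adjusted p = 0.323), Heatr1 at 118 and 118 against 128 and 129 CPM (-0.13 ± 0.13) and Nob1 at 52.7 and 54.5 against 58.5 and 59.8 CPM (-0.15 ± 0.09). Nop56 was at 144 and 184 CPM with VitC and 193 and 225 CPM with TGFb alone (-0.35 ± 0.14, edgeR adjusted p = 0.095). Ncl was at 673 and 848 against 932 and 981 CPM (-0.34 ± 0.11, edgeR adjusted p = 0.0571), and Bop1 at 105 and 110 against 121 and 133 CPM (-0.24 ± 0.10). Myc was at 272 and 257 CPM with VitC and 298 and 291 CPM with TGFb alone and did not pass (-0.16 ± 0.08, edgeR adjusted p = 0.179). The count of 13 depended on single libraries: it was 1 without the second TGFb or the first TGFb plus VitC library and 7 without the first TGFb library, and limma on log2 FPKM gave 8 calls.

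In the related lists, genes changed with VitC in both directions. Of the 30 growth targets 22 fell and 1 rose, with the leucine transporter gene Slc7a5 (-0.73 ± 0.12) and the spermidine synthase gene Srm (-0.71 ± 0.11) lowest. Of 74 other ribosome biogenesis genes 14 fell, and of 21 cell cycle genes 16 fell. In the Myc network 5 of 11 tested genes rose, led by Mga (0.54 ± 0.13), and 2 fell. Summed cell cycle genes were at 6076 to 6821 CPM with VitC and 7920 to 8362 CPM with TGFb alone, and their part in the falls was not tested. Summed erythroid markers were at 49 to 69 CPM with VitC and 130 to 179 CPM with TGFb alone, and in cultures with RA at 8.66 to 16.3 CPM with VitC and 38.8 to 71.3 CPM without. Summed CD8 T cell markers, both of which rose, were at 23.3 to 28.2 CPM with VitC and 13.2 to 15.4 CPM with TGFb alone, and in cultures with RA at 39.1 to 42.1 CPM with VitC and 11.02 to 11.6 CPM without. Their part was not tested either.

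**Figure D3:**
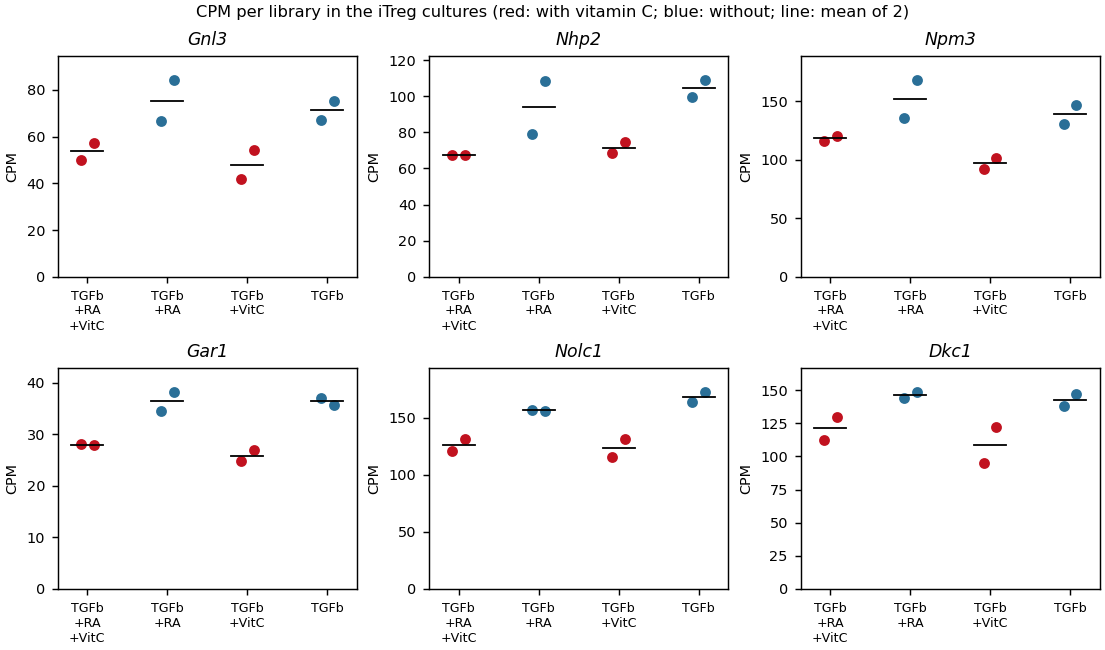
CPM per library of 6 genes in the 4 iTreg cultures, with vitamin C (red) and without (blue), and lines at the mean of 2 libraries. Apart from Dkc1, named for the H/ACA role, the genes were picked for the largest falls with vitamin C in cultures lacking RA. Their lower values there thus follow from the choice. With and without RA, the vitamin C libraries lie below their counterparts for each of the 6 genes: Gnl3, for instance, is at 50 and 57.4 CPM with RA and VitC against 66.5 and 84.3 CPM with RA.

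RA, a vitamin A metabolite that favours Foxp3 expression, was compared with TGFb alone next. Of the 42 genes Rrp12 alone rose and 41 did not pass, with a median of 0.06, where 7.19% of all tested genes rose and 9.29% fell. Rrp12 had 65.7 and 51.1 CPM with TGFb and RA and 43 and 41 CPM with TGFb alone (0.49 ± 0.15, edgeR adjusted p = 0.0366). The call was lost without the first TGFb plus RA library (adjusted p = 0.318) or either TGFb library, and by limma (adjusted p = 0.0547). Utp20 (86.1 and 54.4 CPM) and Polr1a (120 and 86.9 CPM) were also higher in the first RA library than in the second, and Ncl (892 and 971 CPM) was lower, genes chosen here after their values were seen. Myc was at 289 and 299 CPM with RA and 298 and 291 CPM with TGFb alone (0.01 ± 0.08, edgeR adjusted p = 0.93). Representative genes of the other roles lay within 0.21 of their TGFb level on the log2 scale: Nop56 at -0.05, Ncl at -0.02, Bop1 at -0.01, Dkc1 at 0.06, Heatr1 at 0.18, Nob1 at 0.18 and Polr1b at 0.21. Cell cycle genes moved without them, since 20 of 21 fell.

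With RA present, 5 of the 42 genes fell with VitC and 37 did not pass, where 7.54% of all tested genes passed, 3.22% lower and 4.31% higher. The median was -0.25 and 41 of 42 values were negative, against 51.9% of all tested genes. Gnl3 had 50 and 57.4 CPM with RA and VitC and 66.5 and 84.3 CPM with RA alone (-0.50 ± 0.13, edgeR adjusted p = 0.0339). Nhp2 had 67.7 and 67.3 against 79.2 and 108 CPM (-0.49 ± 0.12), and Nolc1 had 121 and 131 against 157 and 156 CPM (-0.32 ± 0.09). Wdr43, a component of the early small-subunit complex, had 131 and 134 against 157 and 159 CPM (-0.27 ± 0.08, edgeR adjusted p = 0.049). Myc had 253 and 234 CPM with RA and VitC and 289 and 299 CPM with RA alone (-0.28 ± 0.08, edgeR adjusted p = 0.0449). In all 5 the libraries with VitC lay below those without. The calls sat close to the threshold: that of Myc was lost by DESeq2 (adjusted p = 0.0568) and without each of the 4 libraries in turn (edgeR adjusted p = 0.0563 to 0.284), and in a fit of the 4 compared libraries alone (edgeR adjusted p = 0.192). The count of 5 was 7 without the first TGFb plus RA library, 1 without the second, and none of the 42 passed without either library with both supplements.

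The test of the difference between the VitC effect with RA and that without RA gave 0 of 42 genes by edgeR, DESeq2 and limma, against 0.0177% of all tested genes by edgeR. At an unadjusted p under 0.05 it gave 1 of 42 by edgeR, beside 564 of the 11287 tested genes. Wdr12 had the largest ratio to its error (0.27 ± 0.13, edgeR adjusted p = 0.997). The difference for Myc was -0.12 ± 0.11 and for Gnl3 0.08 ± 0.19. These errors leave room for sizeable differences in single genes, and the 2 VitC effects are not shown to be equal.

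With VitC present, 2 of the 42 genes rose with RA and 40 did not pass, where 5.81% of all tested genes rose and 9.3% fell. Rrp12 had 57.8 and 41.3 CPM with both and 32.9 and 33.3 CPM with VitC alone (0.59 ± 0.15, edgeR adjusted p = 0.0164). Wdr12 had 56.8 and 58.5 CPM with both and 43.1 and 41.5 CPM with VitC alone (0.46 ± 0.09, edgeR adjusted p = 0.00252). The call of Rrp12 was lost without the first library with both (edgeR adjusted p = 0.217) or either TGFb plus VitC library (adjusted p = 0.112 and 0.0643). Myc was at 253 and 234 CPM with both and 272 and 257 CPM with VitC alone (-0.11 ± 0.08, edgeR adjusted p = 0.453).

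With both supplements against TGFb alone, 9 of the 42 genes fell and 33 did not pass, where 19.2% of all tested genes fell and 18.3% rose. The median was -0.19. Nhp2 had 67.7 and 67.3 CPM with both and 99.5 and 109 CPM with TGFb alone (-0.62 ± 0.12, edgeR adjusted p = 0.00119). Mrto4 had 44.2 and 47.7 against 58.8 and 63.8 CPM (-0.41 ± 0.13), Nolc1 121 and 131 against 164 and 173 CPM (-0.41 ± 0.09), and Nop58 131 and 147 against 174 and 192 CPM (-0.39 ± 0.11). Gnl3 (-0.40 ± 0.13), Gar1 (-0.37 ± 0.13), Fbl (-0.32 ± 0.10) and Nop2 (-0.26 ± 0.10) also fell. Myc had 253 and 234 CPM with both and 298 and 291 CPM with TGFb alone (-0.27 ± 0.08, edgeR adjusted p = 0.0169), and its call was lost without either TGFb library or the second library with both (adjusted p = 0.0574 to 0.123). The share of genes that fell, 9 of 42, was near the share among all tested genes. The count was 2 without the second TGFb library, 6 without the first, and 3 without the first library with both.

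Tet2/3-deficient Treg cells carried more of these transcripts than control Treg cells. Of the 42 genes 32 rose and 10 did not pass, where 16.7% of 11679 tested genes rose and 15.8% fell. The log2 fold change was positive for 41 of 42 genes, against 50.1% of all tested genes, and the median was 0.31, a fold of 1.24. Summed over the 42 genes, the 4 Tet2/3-deficient libraries held 6857 to 7287 CPM of raw totals and the 4 control libraries 5122 to 5798 CPM. Myc rose (0.50 ± 0.06, edgeR adjusted p = 9.85e-05), with its 4 Tet2/3-deficient libraries at 174 to 197 CPM and its 4 control libraries at 127 to 135 CPM.

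All 7 snoRNP genes rose in Tet2/3-deficient cells. Gar1 had 47.4, 44.7, 46.2 and 48.8 CPM in Tet2/3-deficient and 33.7, 28, 34.5 and 30.4 CPM in control Treg cells (0.58 ± 0.08, edgeR adjusted p = 0.000378). Dkc1 had 131, 131, 131 and 150 CPM in Tet2/3-deficient and 85.7, 92.9, 102 and 102 CPM in control Treg cells (0.52 ± 0.07). Nhp2 had 87.7, 96.8, 92.8 and 100 CPM in Tet2/3-deficient and 70.2, 59.9, 75.8 and 58.5 CPM in control Treg cells (0.52 ± 0.09). In these 3 genes every Tet2/3-deficient library exceeded every control library. Nop56 had 182, 163, 175 and 196 CPM in Tet2/3-deficient and 136, 119, 148 and 142 CPM in control Treg cells (0.40 ± 0.08).

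Large-subunit genes rose in 8 of 11 cases in Tet2/3-deficient cells. Wdr12 had the largest change of the set, with 64.2, 59, 62 and 59.5 CPM in Tet2/3-deficient and 39.8, 33.9, 41.6 and 38.6 CPM in control Treg cells (0.68 ± 0.08, edgeR adjusted p = 8.88e-05). Its PeBoW partners did not pass: Bop1 was at 104, 110, 111 and 131 CPM in Tet2/3-deficient and 99.7, 96.4, 123 and 103 CPM in control Treg cells (0.12 ± 0.09, edgeR adjusted p = 0.341), and Pes1 at 0.15 ± 0.06 (edgeR adjusted p = 0.0936). The Bop1 groups overlapped. Nucleolin (Ncl) had 1220, 1110, 1155 and 1180 CPM in Tet2/3-deficient and 1021, 832, 841 and 900 CPM in control Treg cells (0.39 ± 0.07), and 5 of the 6 chaperones and regulators rose.

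RNA polymerase I genes rose in 3 of 4 cases in Tet2/3-deficient cells. Polr1b had 73.9, 69.1, 73.9 and 74.6 CPM in Tet2/3-deficient and 61.6, 57.4, 57.7 and 58.7 CPM in control Treg cells (0.32 ± 0.06), while the largest subunit, Polr1a, was level (-0.02 ± 0.07, edgeR adjusted p = 0.86). Of the early small-subunit genes 5 of 10 rose, among them Heatr1, with 199, 183, 199 and 200 CPM in Tet2/3-deficient and 159, 149, 150 and 166 CPM in control Treg cells (0.33 ± 0.06). The 3 late small-subunit genes all rose, and Nob1 had 64.5, 59.7, 64.6 and 64.6 CPM in Tet2/3-deficient and 52.8, 48.2, 55.9 and 55.7 CPM in control Treg cells (0.26 ± 0.07). With any single library left out, 27 to 31 calls were made.

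The related lists differed in how many of their genes rose in Tet2/3-deficient cells. Of the 30 growth targets 25 rose, led by Bcat1 (0.99 ± 0.14) and Tfrc (0.96 ± 0.10), and of 73 tested other ribosome biogenesis genes 27 rose and 2 fell. The falls were Taf1c (-0.31 ± 0.07) and Taf1b (-0.25 ± 0.08), subunits of the SL1 factor that recruits RNA polymerase I. In the Myc network Mnt (-0.42 ± 0.10) and Mxd1 (-0.25 ± 0.08), both antagonists of Myc, fell and 8 tested genes did not pass. Of 12 RNA exosome genes 3 rose and 9 did not pass. Of 21 cell cycle genes 11 rose. Their summed level was 3594 to 3883 CPM in Tet2/3-deficient libraries, against 1364 to 2530 CPM in control ones. The summed level of B cell markers was 41 to 59 CPM in Tet2/3-deficient and 43.1 to 104 CPM in control libraries, of myeloid markers 131 to 209 and 128 to 143 CPM, and of NK cell markers 8.51 to 12.5 and 3.96 to 6.51 CPM. Both CD8 T cell markers, Cd8a (-2.14 ± 0.30) and Cd8b1 (-2.97 ± 0.13), fell, with a summed level of 3.37 to 5.3 CPM in Tet2/3-deficient and 24.8 to 28.5 CPM in control libraries. Of 5 CD4 T cell genes with a row, Cd4 (-0.58 ± 0.07), Lck (-0.30 ± 0.07) and Cd3e (-0.22 ± 0.06) fell, and the summed level was 2780 to 3076 CPM in Tet2/3-deficient and 3060 to 3555 CPM in control libraries. The part of dividing cells and of other cell types in the rise of these genes was not tested.

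The 13 genes that fell with VitC in TGFb cultures and the 32 that rose in Tet2/3-deficient Treg cells come from comparisons that share no library. All 13 were among the 32, that is 100% of the first list and 40.6% of the second. Of all 42 genes, 76.2% rose in Tet2/3-deficient cells and 41 had a positive log2 fold change, while all 42 were negative with VitC. Most of any 13 of these genes would thus be among the 32. The like share over all tested genes was not counted, and the overlap is no separate support for a link.

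**Figure D4:**
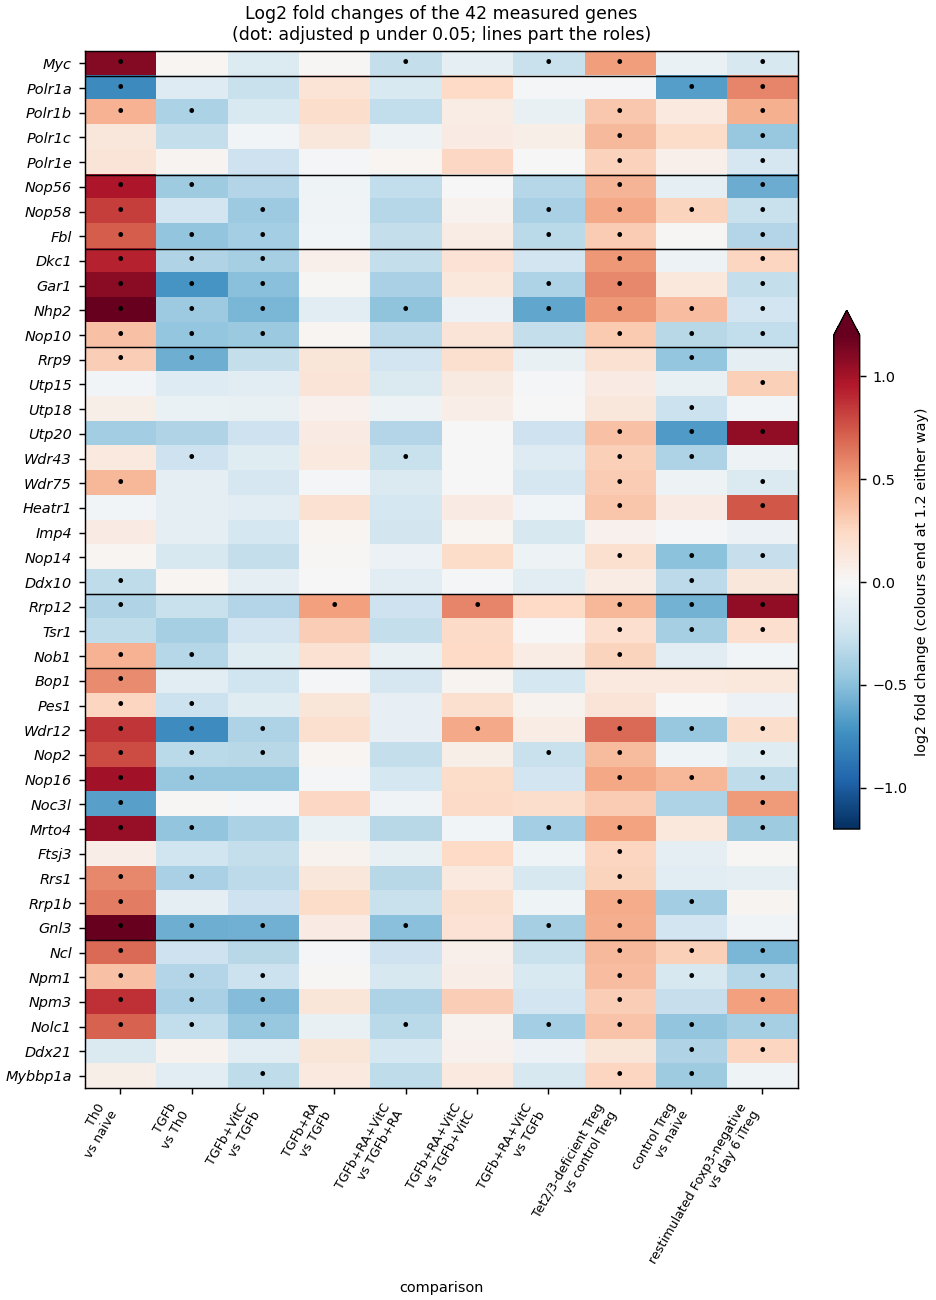
Log2 fold change of each of the 42 genes (rows, grouped by role) in 10 comparisons (columns), red for higher and blue for lower in the group named first, with a dot where the edgeR adjusted p is under 0.05. The VitC columns are blue and the Tet2/3-deficient column red throughout the snoRNP rows, whereas the restimulation column mixes both colours.

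Control Treg cells were set against naive cells as 2 ex vivo states, which also differ in age (3 weeks against 5 to 6 weeks) and in the floxed alleles. These causes and the cell type cannot be told apart. Summed B cell markers were at 43.1 to 104 CPM in control Treg and 2.015 to 2.8 CPM in naive libraries. Myeloid markers were at 128 to 143 and 48.3 to 48.6 CPM, and erythroid and CD8 T cell markers are given above. Total counts were 13959282 to 17404755 in control Treg and 9647669 to 9925908 in naive libraries. The part of other cell types and of depth was not tested. Of the 42 genes 4 rose, 16 fell and 22 did not pass, with a median of -0.12, where 28.6% of 11738 tested genes rose and 26.3% fell. Myc was at 132, 127, 135 and 133 CPM in control Treg and 135 and 142 CPM in naive cells and did not pass (-0.08 ± 0.08, edgeR adjusted p = 0.406). The falls took in 6 of 10 early small-subunit, 2 of 3 late small-subunit and 2 of 11 large-subunit genes, 4 of 6 chaperones and regulators, 1 of 4 RNA polymerase I genes and 1 of 4 H/ACA genes. Utp20, a large scaffold of the small-subunit processome, had 83.2, 69.8, 63.8 and 78 CPM in control Treg and 123 and 110 CPM in naive cells (-0.68 ± 0.11, edgeR adjusted p = 0.000516). Polr1a had 120, 107, 109 and 125 CPM in control Treg and 192 and 171 CPM in naive cells (-0.66 ± 0.10). Rrp12 had 46.9, 39.3, 47.4 and 47.8 CPM in control Treg and 69.3 and 63.9 CPM in naive cells (-0.57 ± 0.11). The groups of these 3 genes did not overlap.

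Nop14 and Nolc1 fell as well in control Treg cells (-0.50 ± 0.10 and -0.47 ± 0.10). Nop14, a small-subunit assembly factor, had 46.8, 49.2, 48.7 and 54.3 CPM in control Treg and 72.6 and 66.5 CPM in naive cells. Nolc1 had 99.7, 86.9, 88.4 and 103 CPM in control Treg and 133 and 127 CPM in naive cells. The 4 rises were Nop16 (0.40 ± 0.12), Nhp2 (0.37 ± 0.12), Ncl (0.29 ± 0.09) and Nop58 (0.26 ± 0.09). Nhp2 had 70.2, 59.9, 75.8 and 58.5 CPM in control Treg and 49.6 and 51.4 CPM in naive cells. All 4 rises were lost without either naive library (edgeR adjusted p = 0.0912 to 0.126), and 11 calls were made in each of these 2 fits. Over raw library totals in place of TMM, the median of all genes moved by 0.14, the median of the 42 was 0.02, and 6 rose and 11 fell, so the direction for the set as a whole depends on the scaling.

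Foxp3-negative cells sorted after restimulation were set against Foxp3-positive day 6 iTreg cells in the second table. The groups differ both in restimulation and in the sort on Foxp3, and these cannot be told apart. Summed Treg markers were at 862 to 905 CPM in restimulated Foxp3-negative and 3992 to 4137 CPM in day 6 iTreg libraries. Of the 42 genes 12 rose, 17 fell and 13 did not pass, where 68.8% of 11252 tested genes passed, 33.6% higher and 35.2% lower. The shares of the 42 are near those of all genes, and the median was -0.07 (0.01 over raw totals, with 14 higher and 12 lower). Myc had 272, 266 and 250 CPM in restimulated Foxp3-negative and 317, 298 and 284 CPM in day 6 iTreg cells (-0.19 ± 0.06, edgeR adjusted p = 0.00864). This fall did not pass over raw totals (edgeR adjusted p = 0.118) or by limma (adjusted p = 0.128).

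The 5 largest rises in restimulated cells were those of Rrp12, Utp20, Heatr1, Polr1a and Noc3l. Rrp12 had 66, 59.9 and 60.4 CPM in restimulated Foxp3-negative and 32.1, 28 and 28.9 CPM in day 6 iTreg cells (1.07 ± 0.07, edgeR adjusted p = 4.64e-09). Utp20 had 64.9, 63.5 and 63.3 CPM in restimulated Foxp3-negative and 33.7, 29.9 and 28.3 CPM in day 6 iTreg cells (1.06 ± 0.07). Heatr1 had 123, 121 and 118 CPM in restimulated Foxp3-negative and 75, 74.6 and 66.8 CPM in day 6 iTreg cells (0.74 ± 0.06). In all 3 the groups stood clear of each other. Polr1a had 87.3, 84 and 90.7 CPM in restimulated Foxp3-negative and 63.8, 55 and 56.4 CPM in day 6 iTreg cells (0.58 ± 0.07). Noc3l had 28, 27.7 and 28.4 against 22.3, 20 and 16.9 CPM (0.51 ± 0.09), and Polr1b 52.5, 49.8 and 45.6 against 40.5, 34.8 and 34.7 CPM (0.43 ± 0.08).

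The falls in restimulated cells were led by snoRNP and nucleolar genes. Nop56 had 116, 121 and 101 CPM in restimulated Foxp3-negative and 170, 176 and 165 CPM in day 6 iTreg cells (-0.60 ± 0.07, edgeR adjusted p = 1.39e-06). Nucleolin (Ncl) had 574, 558 and 613 CPM in restimulated Foxp3-negative and 882, 854 and 814 CPM in day 6 iTreg cells (-0.55 ± 0.06). Polr1c, a subunit that RNA polymerases I and III share, had 44.8, 42.4 and 39.6 CPM in restimulated Foxp3-negative and 53.5, 60.4 and 59.6 CPM in day 6 iTreg cells (-0.46 ± 0.07). Polymerase I subunits thus split, with Polr1a and Polr1b higher and Polr1c and Polr1e lower. Mrto4 (-0.42 ± 0.07) and Nolc1 (-0.40 ± 0.07) fell, and so did all 3 box C/D genes and 3 of 4 H/ACA genes. Dkc1 was the exception, with 115, 117 and 118 CPM in restimulated Foxp3-negative and 108, 96.1 and 89.6 CPM in day 6 iTreg cells (0.25 ± 0.07). Bop1 and Nob1 did not pass (0.13 ± 0.06 and -0.03 ± 0.06).

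Among related lists, 20 of 73 other ribosome biogenesis genes rose in restimulated cells and 30 fell, the rises led by Mdn1 (1.14 ± 0.14), a very large ATPase of large-subunit assembly. Of the 30 growth targets 19 fell and 4 rose, with Bcat1 (-2.19 ± 0.12) and Ldha (-2.01 ± 0.06) lowest, and 15 of 21 cell cycle genes fell. In the Myc network all 11 tested genes changed, 6 higher and 5 lower, including Mycn (1.77 ± 0.10) and the antagonist Mxi1 (-2.66 ± 0.07).

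Exon length, as deposited with the FPKM values, ran alongside several of these patterns. The 42 genes spanned 695 bases (Nop10) to 8932 bases (Polr1a), with a median of 2834. Across the 42 genes, Spearman's rho between exon length and log2 fold change was -0.63 for Th0 against naive cells and 0.59 for restimulated Foxp3-negative against day 6 iTreg cells, beside -0.23 and 0.33 across all tested genes. It was 0.57 for TGFb against Th0 (0.31 for all genes), 0.49 for VitC without RA (0.30), -0.28 for Tet2/3-deficient against control Treg (-0.15) and -0.42 for control Treg against naive (-0.14). These are descriptions across genes that share libraries, and genes are not replicates. All tested genes were cut into 3 equal classes by length. Among the 6 genes of the set in the longest class, the median log2 fold change was -0.10 in Th0 cells, 0.34 in Tet2/3-deficient cells and 0.42 in restimulated cells. Among the 16 in the shortest class it was 0.78, 0.38 and -0.28. In Tet2/3-deficient cells both classes thus had positive medians. The part of transcript length or RNA quality in the fold changes was not tested.

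**Figure D5:**
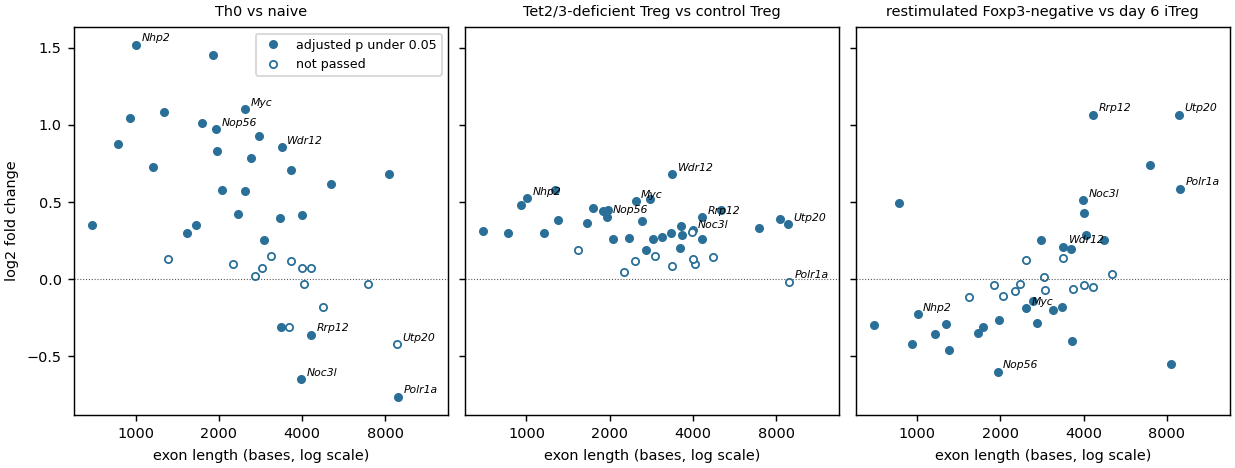
Log2 fold change against exon length (bases, log scale) for the 42 genes in 3 comparisons, with filled points for an edgeR adjusted p under 0.05 and open points for genes that did not pass. Among long genes, Polr1a, Utp20 and Rrp12 lie low in Th0 against naive cells and high in restimulated against day 6 iTreg cells, and Ncl does the opposite, while in Tet2/3-deficient against control Treg cells genes of all lengths lie above 0 except Polr1a.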

How the data were processed

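Polyadenylated RNA was made into libraries with the TruSeq stranded kit, per the labels' protocols. The submitters' processing notes name the build mm9, alignment with TopHat2 2.1.1 after Trim Galore 0.4.2, and bcl2fastq 2.20.0.442. They also list edgeR 3.26.6 in R 3.6.1, Picard 2.5.0 and SAMtools 1.7. The counting tool and annotation are not given in the sources used here. The deposited counts are whole reads over the exons of 21761 genes, and the deposited FPKM values equal count over library total and exon length. Ex vivo libraries took their group from the column names, whose numbers match no single sample title.

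Counts were tested in R 4.3.3 with edgeR 4.0.16 (TMM factors, filterByExpr, robust quasi-likelihood tests, 2-sided, Benjamini-Hochberg over all tested genes, threshold 0.05). The 12 naive and cultured libraries shared a fit with 6 residual degrees of freedom, and each further comparison had a fit of its own with 6 (Tet2/3-deficient), 4 (control Treg against naive) and 4 (restimulation). An SE is the size of the log2 fold change over the square root of F. Group levels use TMM-scaled totals, summed markers use raw totals. Scripts were tested on simulated counts. Replicate libraries were no copies of each other (chi-square per degree of freedom 2.289 to 23.6). Alternatives were DESeq2 1.42.0, RLE factors, raw totals, no count filter, a replicate block, limma 3.58.1 on log2 FPKM with 1 added, fits of fewer or more libraries, and fits without each library in turn. The genes, the lists and the alternatives were chosen with earlier results of these data known. Genes named in full were Myc, 1 for each role and up to 5 called genes with the largest change in each direction per comparison; other genes were named to complete a role.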

Additional observations from a re-analysis of the deposited data

Results flagged for a closer look

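In the 84 groups of 4 ex vivo Treg libraries (42 genes in Tet2/3-deficient and in control cells), 8 had a library far from the other 3. Chance puts about 1 in 20 independent groups past this limit, but these groups share 8 libraries, so the number is given as a count alone. Among Tet2/3-deficient libraries, S6 was lowest of 4 for Polr1b (69.1 CPM), Heatr1 (183 CPM) and Nob1 (59.7 CPM), and S8 was highest of 4 for Dkc1 (150 CPM) and Nop2 (103 CPM). Among control libraries, S2 was lowest of 4 for Nop58 (137 CPM), Wdr75 (53.4 CPM) and Rrp12 (39.3 CPM). Without S6, 28 of the 42 genes rose in Tet2/3-deficient cells, without S8 28, and without control S2 27.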

How the results depend on the processing

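Of 136 named values of single genes, 76 passed in the reported fits and 46 of these passed under every alternative. Over 1584 alternative values of these, 106 lost and 19 gained a pass, and none that passed changed sign. With 1 library left out, called members numbered 27 to 31 for Tet2/3-deficient against control Treg, 11 to 22 for control Treg against naive, 25 to 28 for Th0 against naive, 25 to 29 for restimulated against day 6, 4 to 14 for TGFb against Th0, 1 to 16 for VitC without RA, 0 to 7 for VitC with RA, 0 to 2 for RA without VitC, 1 to 3 for RA with VitC, 2 to 8 for both supplements and 0 to 0 for the difference between the VitC effects. For VitC with RA (5 called) DESeq2 gave 3, RLE factors 3, raw totals 2, limma 0 and the 4 compared libraries alone 0. Limma gave 8 for VitC without RA (13 called) and 0 for RA (1 called). No label says what a shared replicate number marks. Deviations of same-numbered libraries correlated at 0.22 to 0.42 in the 12 pairs among the 4 TGFb cultures. They correlated at 0.01 to 0.09 in the other 18 pairs of the first table, and over 0.1 in 1 of 3 of the second. Naive and cultured groups have 2 libraries each, so every correlation among first replicates recurs, equal by construction, among second replicates. The 12 and the 18 pairs thus hold each correlation 2 times and are not all separate evidence. These correlations are a hint from the data, not a stated design. A replicate block gave 20 members for VitC without RA (with Ncl, adjusted p = 0.00462, and Nop56, adjusted p = 0.0394), 13 for VitC with RA, and 1360 in place of 851 called genes over the whole table for VitC with RA. The ex vivo libraries carry no shared number.

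Calls over all genes also moved, by over 1.5 times in some of the fits given here and by less in others. With a library left out they were 771 to 1001 for VitC without RA (1900 reported), 1480 to 1945 for TGFb against Th0 (2943), 795 to 1060 without the first TGFb or first RA library for RA (1860), 2811 without the first TGFb library for both supplements (4232), 819 to 1367 for RA with VitC (1706) and 424 to 899 for VitC with RA (851; 487 from its 4 libraries alone). For RA with VitC they were 819 without the first TGFb plus VitC library and 1115 and 1014 without the first and second library with both. For VitC with RA they were 424 without the second RA library and 460 and 438 without the first and second library with both. The difference between the VitC effects gave 2 genes, 17 by DESeq2, 23 by limma, 25 with no filter and 26 with the block, none of them members. Raw totals made 66% of the calls for control Treg against naive higher, against 52.1% with TMM, and limma made 62.3% of those for Tet2/3-deficient against control Treg higher, against 51.4%.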
